A study of Homo sapiens with 4 samples.

Results

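The genes described here encode 9 surface antigens used to type or target B cells and B cell precursor leukemia, namely CD22, CD24, CD38, CD72, MS4A1, CR2, MME, TNFRSF13C and CSPG4. For each gene, all consensus ATAC-seq peaks that overlapped the gene body extended by 10 kb on either side were taken from the count table, using the GENCODE 44 annotation lifted to GRCh37 (hg19). Of the 9 genes, 8 were annotated, and their windows held 55 of the 139872 peaks in the table. CD24 had no entry in this annotation, and its RefSeq promoter sequences matched GRCh37 at 0 positions, so CD24 is not analysed here.

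ATAC-seq measures open chromatin by the insertion of sequencing adaptors by a transposase. It was performed in SEM cells, an MLL-rearranged (MLL-r) B cell precursor leukemia line. All 4 libraries came from SEM cells that expressed dCas9-KRAB-BSD, a Cas9 without nuclease activity fused to the KRAB repressor domain, from a lentivirus. In 2 libraries the cells carried sgFLT3-DE-1, which targets a distal FLT3 enhancer, and in the other 2 they carried sgNT, a guide without a target, and they had been selected in puromycin. The study's notes on peak calling speak of biological replicates, but the sources used here do not say whether these were separate cultures or whether the cells were 1 clone, so p-values cover only how far these libraries scatter. The comparison asks whether accessibility elsewhere in the genome, here at the antigen genes, differed between the guides.

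Surface antigens mark the stages of B cell development. MME (CD10) and CD38 are found on precursors, CD22, CD24 and CD72 persist through much of the lineage, and MS4A1 (CD20), CR2 (CD21) and TNFRSF13C belong mainly to later stages. MLL-r B cell precursor leukemia is known for the frequent absence of CD10 from the cell surface and for the presence of NG2, the product of CSPG4. Several of these proteins are targets of therapeutic antibodies or engineered T cells, MS4A1 and CD22 being the best known.

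The sequences that follow are windows of at most 300 bases at the centres of 3 peaks on which the description turns, without annotated UTR bases. They were read from GRCh37, and capitals mark matches on either strand to one of 5 motifs searched. The motifs were GAGGAAGT (PU.1-type ETS site), TCCCNNGGG (EBF1-type site), TGTGGT (RUNX site), ATGATTTA (HOX-type site) and TGATTGAT (PBX-HOX-type site). MME is shown because 1 intronic peak held most of the counts of its window, and the capitals are an EBF1-type match.
MME intron 3 peak, chr3:154829083-154829382, plus strand: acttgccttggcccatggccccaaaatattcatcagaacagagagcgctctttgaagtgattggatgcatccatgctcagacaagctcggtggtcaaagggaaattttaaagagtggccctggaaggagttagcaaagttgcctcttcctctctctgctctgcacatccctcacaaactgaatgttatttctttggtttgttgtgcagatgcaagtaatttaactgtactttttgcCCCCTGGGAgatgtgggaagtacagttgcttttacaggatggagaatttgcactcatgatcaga
CD72 is shown for its most accessible promoter peak, and the capitals are a PU.1-type match. The run stops where an annotated UTR begins.
CD72 promoter peak, chr9:35619540-35619728, minus strand: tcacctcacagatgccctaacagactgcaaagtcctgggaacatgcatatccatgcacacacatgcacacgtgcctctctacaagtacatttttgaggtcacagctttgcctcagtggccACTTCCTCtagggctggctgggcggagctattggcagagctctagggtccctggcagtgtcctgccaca
CSPG4 is shown for the intronic peak with the most counts, and the capitals are a PU.1-type match. This peak was chosen after its values were seen.
CSPG4 intron 1 peak, chr15:75986087-75986386, minus strand: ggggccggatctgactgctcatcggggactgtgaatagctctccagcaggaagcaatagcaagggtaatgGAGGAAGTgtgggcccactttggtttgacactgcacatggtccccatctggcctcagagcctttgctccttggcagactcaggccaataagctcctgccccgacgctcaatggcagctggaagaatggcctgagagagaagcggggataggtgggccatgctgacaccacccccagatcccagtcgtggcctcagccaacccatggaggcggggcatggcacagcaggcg

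Windows of 300 bases were centred on each of the 55 member peaks. The median peak of the whole table was 179 bp long, so most windows reached beyond the peak, and a match need not lie in it. The EBF1-type motif was present in 10 windows (18.2%), compared with 9.19% of the windows of all 82558 tested peaks. The RUNX motif was present in 18 (32.7%, compared with 34.0%), and the PU.1-type motif in 2 (3.64%, compared with 5.98%). The PBX-HOX-type motif was found in 1 window, around the 95 bp peak upstream of CD22 (1.82%, compared with 0.786%). The HOX-type motif was found in 0 member windows, compared with 1.21% of tested peaks. Of 35116 RefSeq promoters of 300 bases (GRCh38.p14), 2.59% held the PU.1-type, 8.86% the EBF1-type, 13.07% the RUNX, 0.74% the HOX-type and 0.48% the PBX-HOX-type motif. The 55 member peaks include 13 that failed the filter on low counts, while the comparison set holds tested peaks only. The sets were not matched for GC content. A match describes the letters only, and windows of neighbouring peaks can share bases.

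The libraries held 3670758 and 4831164 counts in sgFLT3-DE-1 cells, and 3321429 and 2683477 counts in sgNT cells. Of all peaks, 82558 (59.0%) passed the filter on low counts and were tested. Of the 10 B-lineage markers examined, 8 had a peak within 1 kb of a start, and CD79A and BLNK, both genes of B cell receptor signaling, had none. CPM stands for counts per 1000000 of the library's counts in tested peaks, after TMM scaling. The summed accessibility at these B-lineage promoters was 130.4 and 166.9 CPM in sgFLT3-DE-1 cells, and 148.1 and 175.8 CPM in sgNT cells. Of 10 genes each, 3 T cell, 6 myeloid and 6 epithelial or stromal markers had a promoter peak, with sums of 36.03 to 67.26 CPM. The only erythroid marker with a promoter peak was HBB, whose peaks summed to 573.3 and 239.3 CPM in sgFLT3-DE-1 cells and to 60.83 and 45.24 CPM in sgNT cells. The part of the HBB signal in the results below was not tested. In a bulk library, fewer open cells and less opening per cell cannot be told apart, and the copy number of these loci in SEM cells was not analysed here.

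The antigen genes differed widely in accessibility per length. CD72 and TNFRSF13C were among the most accessible windows of the annotation, CSPG4 was above its middle, CD22, CD38 and MS4A1 were near the middle, and MME and CR2 were below it. Each level here is the summed CPM of all peaks in the window per 10 kb of window, with the SD over 2 libraries per guide. It includes flank peaks that can also belong to neighbouring genes, so it is not the level of the gene alone. CD72 reached 26.2 ± 7.91 in sgFLT3-DE-1 cells and 29.9 ± 3.59 in sgNT cells (n = 2 each), and its sgNT level exceeded that of 96.5% of 20176 coding genes. TNFRSF13C reached 15.7 ± 5.38 in sgFLT3-DE-1 cells and 22.3 ± 4.51 in sgNT cells, above 92.9% of coding genes. CSPG4 followed with 8.72 ± 3.22 in sgFLT3-DE-1 cells and 9.68 ± 2.95 in sgNT cells, above 72.0%. The CD72 and TNFRSF13C levels did not overlap between sgNT libraries, and neither overlapped the CSPG4 levels. CD22 (5.30 ± 2.78 in sgFLT3-DE-1 cells and 6.07 ± 2.49 in sgNT cells), CD38 (6.90 ± 0.379 and 5.69 ± 0.535) and MS4A1 (6.18 ± 0.484 and 5.38 ± 0.791) were above 56.2%, 54.1% and 52.2% of coding genes. These 3 genes did not differ beyond the spread of the sgNT libraries, and CD22 also overlapped CSPG4. MME had 3.91 ± 1.18 in sgFLT3-DE-1 cells and 3.68 ± 0.880 in sgNT cells, above 41.0%, and CR2 had 1.29 ± 0.174 in sgFLT3-DE-1 cells and 1.26 ± 0.115 in sgNT cells, above 23.1%. In the sgNT libraries, MME lay below MS4A1 and CR2 below MME without overlap.

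**Figure D1:**
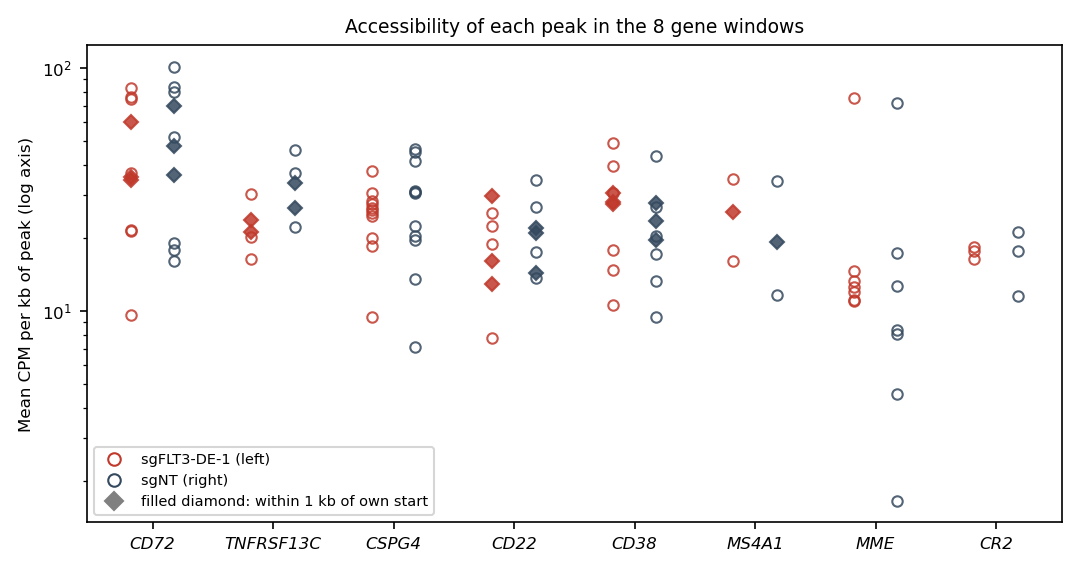
Mean CPM per kb of each of the 55 peaks, on a log axis, by gene, drawn for sgFLT3-DE-1 on the left and sgNT on the right of each gene. Filled diamonds are peaks within 1 kb of a start of the gene itself, which are missing from CSPG4, MME and CR2, and 1 MME peak stands far above the other 6.

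The genes also differed in where their open sites lay. Of the 55 peaks, 38 lay in the body of the member gene and 12 lay within 1 kb of one of its starts. The 12 promoter peaks belonged to 5 genes: 3 each to CD22, CD38 and CD72, 2 to TNFRSF13C and 1 to MS4A1. MME, CR2 and CSPG4 had no peak within 1 kb of a start, as did 7552 of 20176 coding genes (37.4%). The RefSeq promoters of CR2, MME and CSPG4 each matched GRCh37 at 1 position and overlapped 0 peaks, while those of CD38, CD72 and CD22 overlapped 1 peak each. A peak missing from the table says that none was called there, not that the site was closed.

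**Figure D2:**
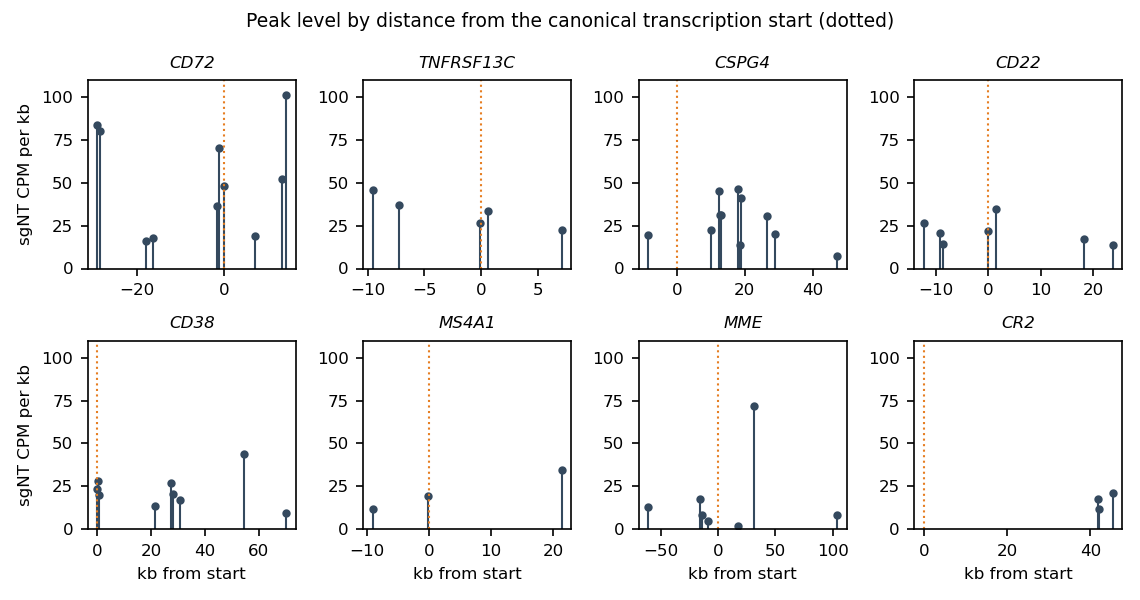
Mean sgNT CPM per kb of each peak against its distance in kb from the canonical transcription start (dotted line), with downstream positive, 1 panel per gene. CD72, TNFRSF13C, CD22, CD38 and MS4A1 had peaks at or near the start, MME and CSPG4 had their strongest peaks inside the gene, and the CR2 peaks all lay beyond the gene's end.

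CD22 encodes an inhibitory receptor that binds sialic acid and dampens B cell receptor signaling. The gene (chromosome 19, 35810164 to 35838264, plus strand) had modest open sites, with no peak whose mean passed the median of 44.1 CPM per kb for tested promoter peaks in sgNT cells. The peak at its canonical start (chr19:35819949-35820120, overlapping exon 1) had 23.4 and 36.0 CPM per kb in sgFLT3-DE-1 cells, against 13.6 and 30.3 in sgNT cells. The 4 values of CD22 overlapped between the guides, and the log2 fold change was 0.49 (SE 0.497). The other 2 promoter peaks of CD22, at upstream starts, were lower in level, with means of 16.0 and 13.0 CPM per kb in sgFLT3-DE-1 cells and 20.9 and 14.3 in sgNT cells. The CD22 peak of highest mean in sgNT cells lay in intron 1 (chr19:35821468-35821727), while in sgFLT3-DE-1 cells the peak at the canonical start was higher. The intron 1 peak had 20.2 and 30.6 CPM per kb in sgFLT3-DE-1 cells against 24.4 and 44.7 in sgNT cells. Its log2 fold change was -0.40 (SE 0.393). Naming a peak for its sgNT level favours lower values in sgFLT3-DE-1 cells, so this difference is a description. In both guides the replicate 2 library was above replicate 1 at these CD22 peaks. Of the 7 peaks in the CD22 window, 2 were shared with FFAR1, a free fatty acid receptor gene that borders CD22 downstream, 1 of them at the end of CD22 itself. The promoter peaks at the upstream starts and the peak beyond them also fall in the window of MAG.

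CD72 encodes a C-type lectin that acts as an inhibitory coreceptor of the B cell receptor. The window of the gene (chromosome 9, 35609979 to 35646807, minus strand) had the highest level of all members, and its 10 peaks were all tested. The promoter peak at chr9:35619374-35619783, printed above in part, had 43.7 and 76.0 CPM per kb in sgFLT3-DE-1 cells, against 66.8 and 73.2 in sgNT cells, and its sgNT mean exceeded that of 76.2% of tested promoter peaks. The guides overlapped at this CD72 peak, with a log2 fold change of -0.21 (SE 0.279). The other promoter peaks of CD72 had log2 fold changes of -0.36 (SE 0.453) at the canonical start and -0.04 (SE 0.369) farther upstream. The most accessible peak of the window (chr9:35603992-35604450) was shared with TESK1, a protein kinase gene downstream of CD72, and lay 14.2 kb from the CD72 start. This shared peak held 27.3% of the sgNT counts of the CD72 window. It had 72.0 and 93.5 CPM per kb in sgFLT3-DE-1 cells, against 93.9 and 108.2 in sgNT cells, so both sgFLT3-DE-1 libraries were below both sgNT libraries by a small margin, with a log2 fold change of -0.28 (SE 0.256). The shared peak was named for its sgNT level, which favours lower values in sgFLT3-DE-1 cells, so this difference is a description. A second pair of strong peaks lay 28.6 and 29.2 kb upstream of the canonical start, at and just beyond the upstream end of the annotated gene, with means of 75.9 and 74.7 CPM per kb in sgFLT3-DE-1 cells and 80.0 and 83.5 in sgNT cells. These peaks also fall in the window of SIT1, an adaptor protein gene of lymphocytes.

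TNFRSF13C encodes the BAFF receptor, which transmits a survival signal to maturing B cells. The gene is short (chromosome 22, 42318036 to 42322810, minus strand), and all 5 peaks of its window were tested. The peak at its start (chr22:42322752-42323059) had 23.1 and 19.4 CPM per kb in sgFLT3-DE-1 cells, against 20.6 and 32.5 in sgNT cells. The second promoter peak of TNFRSF13C, over intron 1 and exon 2 (chr22:42322111-42322340), had 18.8 and 28.8 CPM per kb in sgFLT3-DE-1 cells, against 36.3 and 31.3 in sgNT cells, and here the guides did not overlap. The log2 fold changes of these 2 peaks were -0.32 (SE 0.389) and -0.48 (SE 0.399). Their sgNT means exceeded those of only 20.4% and 33.4% of tested promoter peaks. All 5 TNFRSF13C peaks had negative log2 fold changes, with a median of -0.48, and none passed the test. The 5 peaks were measured in the same 4 libraries, so they are not independent. Negative values were also found at 48.1% of all tested peaks and 62.7% of tested promoter peaks. The upstream peaks fall in the window of CENPM, a centromere protein gene, and the downstream one in that of SHISA8. This downstream peak alone held 34.0% of the sgNT counts of the TNFRSF13C window.

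MS4A1 encodes CD20, a membrane protein of B cells. Its promoter peak (chr11:60223042-60223321), at the start of the gene (chromosome 11, 60223319 to 60238225, plus strand), had 21.0 and 30.0 CPM per kb in sgFLT3-DE-1 cells, against 28.7 and 10.0 in sgNT cells. The 2 sgNT libraries stood farther apart at the MS4A1 promoter than the guides did, and the lowest value rested on 7 counts. Its log2 fold change was 0.38 (SE 0.439). A downstream peak of MS4A1 (chr11:60244569-60244888), 21.4 kb from the start and in no other coding gene, was higher in level and steadier, with 36.7 and 33.2 CPM per kb in sgFLT3-DE-1 cells against 32.4 and 36.3 in sgNT cells, and a log2 fold change of 0.02 (SE 0.327). The third MS4A1 peak, shared with the neighbour MS4A5 of the same gene family, had too few counts to be tested.

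CR2 encodes complement receptor 2 (CD21), which binds fragments of C3 on antigen and lowers the threshold of B cell activation. No peak lay in the body of CR2 (chromosome 1, 207626369 to 207663240, plus strand), as in 4894 coding genes (24.3%). The 3 peaks of the CR2 window were all shared with CR1, the gene of another complement receptor that lies downstream of CR2, so the CR2 window values come from CR1 peaks. The only one tested (chr1:207672943-207673123) had 17.1 and 18.3 CPM per kb in sgFLT3-DE-1 cells, against 20.3 and 22.1 in sgNT cells. Its counts were 10 and 15 in sgFLT3-DE-1 cells and 11 and 10 in sgNT cells, and the log2 fold change was -0.25 (SE 0.523).

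CD38 encodes an enzyme that makes cyclic ADP-ribose from NAD and consumes NAD. All 9 of its peaks lay within the gene (chromosome 4, 15779898 to 15854855, plus strand) and in no other coding gene. The 3 promoter peaks of CD38 had means of 30.7, 28.2 and 27.6 CPM per kb in sgFLT3-DE-1 cells, in order from the start, and of 23.5, 27.8 and 19.7 in sgNT cells. Their log2 fold changes were 0.40 (SE 0.523), 0.04 (SE 0.436) and 0.48 (SE 0.336). The most accessible CD38 peak (chr4:15834463-15834965) lay in intron 3, 54.8 kb from the start, with 49.1 and 49.2 CPM per kb in sgFLT3-DE-1 cells against 41.9 and 45.4 in sgNT cells. Its 2 sgFLT3-DE-1 libraries were above both sgNT libraries, with a log2 fold change of 0.18 (SE 0.265). The largest difference in the CD38 window was at an intron 1 peak (chr4:15807882-15808048), with 35.1 and 43.7 CPM per kb in sgFLT3-DE-1 cells against 12.0 and 28.8 in sgNT cells. Its counts were 19 and 33 in sgFLT3-DE-1 cells, and 6 and 12 in sgNT cells. The log2 fold change was 0.99 (SE 0.478, 95% interval 0.02 to 1.97), with an unadjusted p of 0.0468 and an adjusted p of 1.0 by edgeR's quasi-likelihood test with Benjamini-Hochberg adjustment. Without sgNT replicate 1 the log2 fold change at this CD38 peak was 0.462, and without sgNT replicate 2 it was 1.702.

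MME encodes neprilysin (CD10), a peptidase of the cell surface. The gene is the longest of the members (chromosome 3, 154741913 to 154901493, plus strand), and 85.6% of the sgNT counts in its window came from 1 peak. This peak (chr3:154828840-154829625, printed above in part) spans 786 bp of intron 3, 31.1 kb from the canonical start. It had 234 and 208 counts in sgFLT3-DE-1 cells, and 195 and 120 counts in sgNT cells, or 92.0 and 58.5 CPM per kb in sgFLT3-DE-1 cells against 82.9 and 61.1 in sgNT cells. At 72.0 CPM per kb in sgNT cells, the mean exceeded that of 92.4% of tested peaks away from promoters. The log2 fold change at MME was 0.05 (SE 0.272, 95% interval -0.51 to 0.61). Replicate 1 was above replicate 2 with either guide, opposite in order to CD22, CD72, TNFRSF13C and CSPG4. The other 6 MME peaks had at most 13 counts in any library and were not tested. The one with the fewest counts in sgNT cells had 6 and 5 counts in sgFLT3-DE-1 cells and 1 and 0 counts in sgNT cells. The next had 3 and 5 counts in sgFLT3-DE-1 cells and 1 and 1 counts in sgNT cells. Naming peaks for low sgNT counts favours higher values in sgFLT3-DE-1 cells, so these counts are a description. A further untested peak went the other way, with 9 and 6 counts in sgFLT3-DE-1 cells and 11 and 7 in sgNT cells. The rest overlapped between the guides.

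CSPG4 encodes NG2, a chondroitin sulfate proteoglycan. Of its 11 peaks, 9 lay within the gene (chromosome 15, 75966663 to 76005189, minus strand), most of them in intron 1, between 10.1 and 19.0 kb from the start. The peak with the most counts (chr15:75986071-75986403, printed above in part) had 27.8 and 47.8 CPM per kb in sgFLT3-DE-1 cells against 32.1 and 50.5 in sgNT cells, and its log2 fold change was -0.09 (SE 0.333). At a second intron 1 peak of CSPG4 (chr15:75992637-75992866) the libraries of a guide lay close together, with 25.5 and 25.0 CPM per kb in sgFLT3-DE-1 cells against 45.1 and 45.3 in sgNT cells. It was named for the smallest p of the window, which favours such closeness. The counts at this CSPG4 peak were 19 and 26 in sgFLT3-DE-1 cells, and 31 and 26 in sgNT cells, and its log2 fold change was -0.84 (SE 0.367, 95% interval -1.59 to -0.08), with an unadjusted p of 0.0305 and an adjusted p of 1.0 by edgeR. The CSPG4 peak of highest mean per kb in sgNT cells (chr15:75987101-75987182) had 20.0 CPM per kb in sgFLT3-DE-1 cells and 46.4 in sgNT cells. It was named for that sgNT level, so its log2 fold change of -1.11 (SE 0.675) is a description, on 2 and 12 counts in sgFLT3-DE-1 cells and 12 and 9 counts in sgNT cells. The largest difference in the other direction at CSPG4 was 0.52 (SE 0.523). Neighbours whose windows took in outer peaks were SNX33 and ODF3L1.

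No antigen peak differed between the guides at FDR 0.05 by edgeR's quasi-likelihood test. Of the 55 peaks, 42 (76.4%) were tested, and the other 13 had at most 21 counts in any library. Fitted values in sgFLT3-DE-1 were higher at 16 and lower at 26 (61.9%), while 48.1% of all tested peaks and 62.7% of all tested promoter peaks had lower ones. Over all 82558 tested peaks, 0.00242% were higher and 0.0% lower at that threshold, that is 2 and 0 peaks (0 lower by DESeq2 and limma-voom too), against 0 of the 42 in either direction. At an unadjusted p under 0.05, 1 antigen peak was higher (CD38 intron 1) and 1 lower (CSPG4 intron 1), compared with 0.827% higher and 1.07% lower of all tested peaks. DESeq2 and limma-voom also called 0 of the 42. The 2 sgFLT3-DE-1 libraries were both above the sgNT libraries at 4 peaks (9.52%) and both below them at 7 (16.7%), while 13.7% and 13.8% of all tested peaks did so, and the antigen shares were near this background. The median log2 fold change was -0.08 over the 42 peaks and 0.02 over all tested peaks. Over the 12 antigen promoter peaks it was -0.06, with 5 higher and 7 lower (58.3%) fitted values, against -0.09 and 62.7% lower over all 18160 tested promoter peaks.

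**Figure D3:**
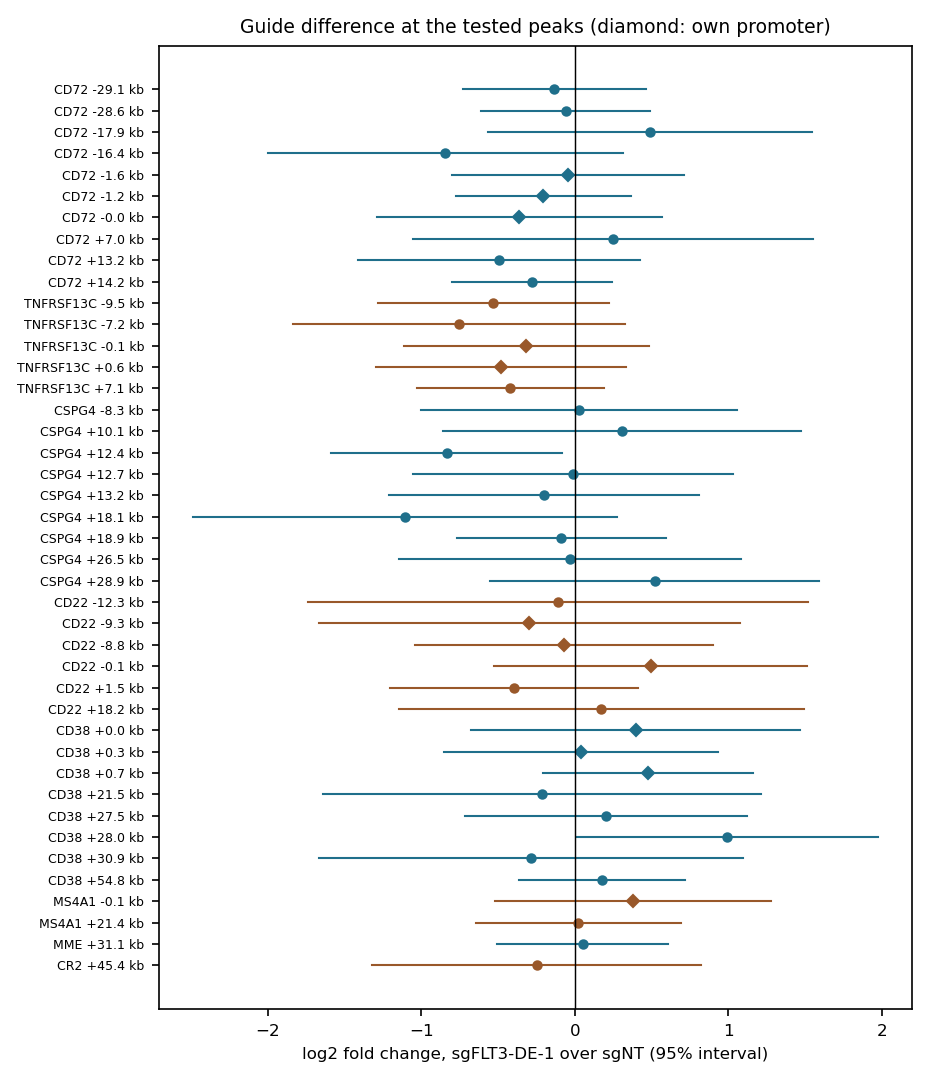
Log2 fold change of sgFLT3-DE-1 over sgNT with its 95% interval at the 42 tested peaks, by gene and by distance from the canonical start in kb. The intervals of 40 peaks cross 0, the exceptions being CD38 at 28.0 kb (0.99) and CSPG4 at 12.4 kb (-0.84). All 5 TNFRSF13C values are negative, as were those of 48.1% of all tested peaks.

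The sums over each gene window gave 1 value per gene with more counts. Their CPM were scaled by the factors of the peaks and the test by factors from the sums. Ratios of the CPM can therefore differ from the fitted log2 fold changes. CD38 had 63.0 and 68.1 CPM in sgFLT3-DE-1 cells, against 50.5 and 57.7 CPM in sgNT cells. It was the only antigen window in which both sgFLT3-DE-1 libraries were above both sgNT libraries, with a log2 fold change of 0.35 (SE 0.195, 95% interval -0.09 to 0.78). TNFRSF13C had 29.3 and 48.2 CPM in sgFLT3-DE-1 cells, against 47.5 and 63.3 CPM in sgNT cells. These TNFRSF13C values overlapped, and the log2 fold change was -0.44 (SE 0.242, 95% interval -0.98 to 0.09). It was -0.205 without sgFLT3-DE-1 replicate 1, -0.759 without its replicate 2 and -0.288 without sgNT replicate 2. CD72 had 117.1 and 180.7 CPM in sgFLT3-DE-1 cells and 155.7 and 184.6 CPM in sgNT cells, a log2 fold change of -0.14 (SE 0.247, 95% interval -0.68 to 0.41). The remaining genes overlapped between the guides too. Their log2 fold changes were 0.26 (SE 0.276) at MS4A1, 0.15 (SE 0.29) at MME, 0.09 (SE 0.387) at CR2, -0.08 (SE 0.262) at CSPG4 and -0.11 (SE 0.352) at CD22. The adjusted p by edgeR was 1.0 for each of the 8 windows. Of 16426 tested gene windows, 0.0% were higher and 0.0% lower at FDR 0.05, while DESeq2 called 2 higher and 0 lower and limma-voom 0 in either direction. At an unadjusted p under 0.05, 0.268% were higher and 0.56% lower, against 0 antigen windows in either direction. Windows whose guides did not overlap made up 6.67% (higher) and 14.8% (lower) of those tested, against 1 and 0 of the 8 antigen windows. With 2 libraries per guide, an exact permutation test of a single value cannot give a p below 0.33.

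**Figure D4:**
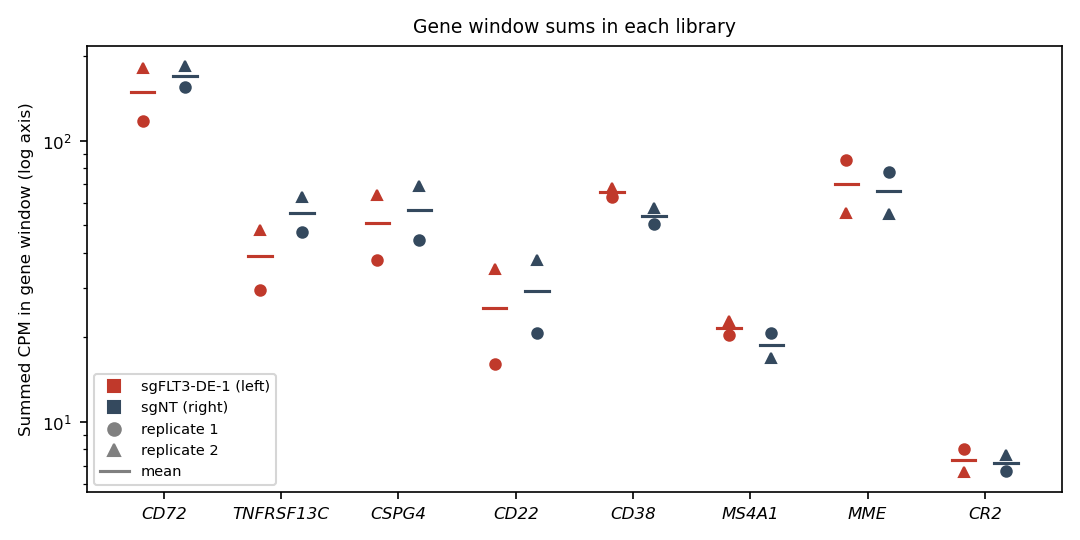
Summed CPM of each gene window in each library, on a log axis, for sgFLT3-DE-1 on the left and sgNT on the right, circles for replicate 1, triangles for replicate 2 and bars for means. Replicate 2 is above replicate 1 with both guides at CD72, TNFRSF13C, CSPG4, CD22 and CD38, and below it with both at MME.

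Libraries with the same replicate number deviated in the same direction at several antigen genes. The ratio of replicate 2 to replicate 1 at CD22 was 2.18 in sgFLT3-DE-1 cells and 1.82 in sgNT cells, while at MME it was 0.648 in sgFLT3-DE-1 cells and 0.71 in sgNT cells. At CSPG4 it was 1.71 in sgFLT3-DE-1 cells and 1.55 in sgNT cells, and at CD38 1.08 in sgFLT3-DE-1 cells and 1.14 in sgNT cells. At CD22, MME and CSPG4 these ratios were farther from 1 than the ratio between the guides. The windows also differed in base composition, with a median peak GC content of 67.5% at TNFRSF13C, 63.4% at CSPG4, 43.5% at MME and 41.9% at MS4A1, against 49.2% over all tested peaks. With offsets for GC content the log2 fold changes of the windows were 0.31 at CD38, -0.33 at TNFRSF13C, 0.14 at MS4A1, -0.001 at MME and -0.02 at CSPG4, and none passed the test.

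Of 40 other surface antigen genes of B cells and leukemia, 26 had a promoter peak, and 21 of them had a tested one. Their 39 tested promoter peaks had a median log2 fold change of -0.15, with 11 higher and 28 lower fitted values, while 62.7% of all 18160 tested promoter peaks had lower ones, and 0 passed FDR 0.05 by edgeR. At an unadjusted p under 0.05, 0 of the 39 were higher and 1 lower, compared with 54 higher and 459 lower of all 18160 tested promoter peaks. The guides did not overlap at 2 higher and 7 lower peaks of the 39, against 7.7% (higher) and 23.3% (lower) of all tested promoter peaks. Among the negative values, the log2 fold change at PROM1, a marker of progenitor cells, was -0.62 (SE 0.364). The smallest p-values among the positive values were at ROR1 (0.33, SE 0.277), a receptor found on leukemic B cells, and at CD53 (0.52, SE 0.588), a tetraspanin of leukocytes.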

How the data were processed

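The authors deposited a table of raw, unnormalised counts in 139872 consensus peaks on hg19 (GRCh37), of median length 179 bp, with a matching list of positions. The sources differ on how these counts were made: the extract protocol names cutadapt and Bowtie2, and the submitters' processing notes list BWA as aligner beside MACS2 2.1.1.20160309, Trim Galore 0.4.4, bedtools 2.24.0 and SAMtools 1.2. Nothing in the sources used here says if read ends were shifted to the transposase cut, and peaks were called in the compared libraries themselves.

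Libraries were grouped by title. The whole table was fitted in edgeR 4.0.16 under R 4.3.3. After filterByExpr (at least 10 counts, 15 in total), 82558 peaks remained. Library sizes were scaled by TMM, and the quasi-likelihood test had no term besides the guide, with Benjamini-Hochberg adjustment and FDR 0.05. Totals ranged from 2683477 to 4831164 counts per library. Replicates differed beyond counting noise (chi-square over df of 2.89 within sgFLT3-DE-1, 1.64 within sgNT), and each was kept as its own library. The same test was run on counts summed over each coding gene and 10 kb either side, with the filter and the TMM factors recomputed on the sums. Window CPM, and whether guides overlapped, used the factors of the peaks. A peak in several windows enters each sum. SE was derived from the log2 fold change and its F statistic. CPM uses TMM-scaled totals of the counts in tested peaks, divided by peak or window length where levels of genes are set side by side. Canonical starts are those tagged in GENCODE 44. Promoter peaks lie within 1 kb of a coding start, and a shared peak overlaps another coding gene or lies within 1 kb of its start. The script was tested on simulated data.

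The peaks named were, per gene, the tested promoter peaks, the one of highest sgNT CPM per kb and the one of smallest p in each direction, or any where at most 6 were tested, with other features named only as their position or sharing required. Of the other antigen genes, the 2 promoter peaks of smallest p in each direction were named. 1 of them is not reported here. The members, lists and tests were chosen with earlier results of these data known. Alternatives were DESeq2 1.42.0, voom in limma 3.58.1, factors by relative log expression, by totals or by loess, a filter at a mean of 50 or none, the replicate number as a block, a GC correction (loess, span 0.3) with and without the block, windows without a flank or with 50 kb, promoters within 5 kb, and leaving out each library.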

Additional observations from a re-analysis of the deposited data

How the results depend on the processing

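None of the 42 tested antigen peaks and none of the 8 antigen windows passed FDR 0.05 in any alternative run. Over all peaks, 2 were higher and 0 lower. The number higher was 1 with total counts, 5 with loess offsets, 5 with no filter, 0 at a mean count of at least 50, 1 with DESeq2 and 1 with the GC correction, and between 0 (without sgNT replicate 2) and 7 (without sgFLT3-DE-1 replicate 2) on leaving out 1 library. The number lower was 1 with loess offsets and between 0 and 2 (without sgFLT3-DE-1 replicate 2) on leaving out 1 library. Over gene windows, 0 were higher and 0 lower, DESeq2 gave 2 higher, and leaving out 1 library gave between 0 and 4 higher (2 without sgFLT3-DE-1 replicate 1, 4 without its replicate 2). The labels do not say what the replicate number stands for. Over the tested peaks, the log2 difference of replicate 1 from replicate 2 in sgFLT3-DE-1 cells correlated at 0.397 with that in sgNT cells. With the replicate number as a block, 17 peaks were higher and 57 lower, and 25 windows were higher and 100 lower. The TNFRSF13C window was then at -0.454 and CD38 at 0.344, with adjusted p of 0.0856 and 0.182 by edgeR. With the block and the GC correction these counts were 12 and 8 peaks, and 15 and 42 windows. With 50 kb flanks the window log2 fold changes were -0.154 at TNFRSF13C, 0.211 at CD38, 0.125 at MS4A1 and 0.369 at CR2. Without a flank they were -0.343 at TNFRSF13C, 0.341 at CD38 and 0.422 at MS4A1. No antigen window fitted at these widths changed sign.

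With the GC correction the MME window was at -0.001 and its intronic peak at -0.016 (-0.012 with the block, -0.013 with no filter). The downstream MS4A1 peak was at -0.039 with no filter, -0.035 with the GC correction and -0.041 with the block added, and the second CD38 promoter peak was at -0.023 with no filter. When each library was left out in turn, log2 fold changes of windows ran from -0.691 to 0.303 at CD22, from -0.389 to 0.075 at CD72, from -0.118 to 0.316 at CR2, from -0.426 to 0.2 at CSPG4 and from -0.286 to 0.515 at MME. Without a change of sign they ran from -0.759 to -0.205 at TNFRSF13C, from 0.067 (without sgNT replicate 2) to 0.498 (without sgNT replicate 1) at MS4A1 and from 0.321 to 0.386 at CD38. The lone library of a guide was then assumed to vary like the others. The median over the antigen peaks ran from -0.5 (without sgFLT3-DE-1 replicate 2) to 0.178, and that of the other antigen list from -0.218 to -0.036 (without sgNT replicate 1). Among single peaks whose sign changed, the ranges were -1.228 to 0.178, -1.142 to 0.454 and -0.004 to 1.132 at the CD22 promoter peaks, -0.789 to 0.072 at CD22 intron 1, -0.146 to 0.171 and -1.117 to 0.332 at CD38, and -0.89 to 0.357, -0.684 to 0.121, -0.41 to 0.211 and -0.077 to 1.278 at CD72. They were -0.557 to 0.25 at the CSPG4 peak of most counts, -0.305 to 0.339 at MME, -0.156 to 1.354 and -0.059 to 0.098 at MS4A1, and -0.621 to 0.026 at TNFRSF13C. Named peaks that kept their sign also moved, from 0.462 to 1.702 at CD38 intron 1, from -1.447 (without sgFLT3-DE-1 replicate 2) to -0.038 (without its replicate 1) at the farthest upstream TNFRSF13C peak and from -2.554 to -0.52 at the CSPG4 peak of highest sgNT level. At the CSPG4 peak with an unadjusted p under 0.05 they ran from -0.849 to -0.826. That peak was named for the smallest p of its window, which favours libraries that lie close together, so its narrow range is a description. The cause of these changes was not tested. The 13 antigen peaks that the filter left untested had at most 21 counts in any library, so differences there were not assessed at this depth.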
